A study of Mus musculus with 38 samples.

Results

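The comparison set whole bone marrow of mice given zoledronic acid (ZA) and G-CSF together against whole marrow of untreated mice. It rested on 4 of the series' 38 samples: the libraries numbered 1 and 3 of the combined treatment, and the libraries numbered 1 and 2 of untreated marrow. Female C57BL/6J mice aged 6 to 7 weeks were used, per the labels' protocols. The combined group received ZA intraperitoneally at 100 µg per kg and recombinant human G-CSF intraperitoneally at 50 µg per kg in 3 daily doses, begun 2 days after ZA. The untreated group received neither agent. Whole marrow given G-CSF alone (3 libraries) and ZA alone (2 libraries), at the same doses, entered the same model and is quoted beside some of the results. Whether replicates came from separate animals is not in the labels; the p-values reflect only how far these libraries spread, and that spread may be technical. Other protocols of the study used nude mice, and the labels give no genotype for a single library beyond the strain.

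G-CSF is the cytokine that drives neutrophil production; it signals through its receptor Csf3r on myeloid cells and releases stem cells from marrow by lowering the chemokine Cxcl12 and the adhesion molecules that hold them. ZA is a bisphosphonate that binds bone mineral and, taken up by osteoclasts, blocks farnesyl diphosphate synthase (Fdps) of the mevalonate pathway. Marrow keeps a low tonic type I interferon response: the receptor activates transcription factors, among them Stat2 and Irf9, which bind the interferon-stimulated response element in target promoters, and Irf7 amplifies the loop. In a bulk sample, fewer cells of a type and less RNA per cell cannot be told apart, and this holds for every cell type list below. Genetic background and treatment cannot be told apart in these marrow libraries either, for any list or gene below.

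Levels are CPM, counts scaled by library total, after TMM scaling between libraries. Differences are log2 fold changes, combined minus untreated, ± the standard error of the edgeR fit, and a gene is called when its Benjamini-Hochberg adjusted p was under 0.05. The combined libraries held 8.44 and 7.08 M estimated counts (M for mega) and the untreated libraries 6.24 and 6.83 M; the 9 marrow libraries ran from 6.24 to 16.2 M. The limit that a count of 0 allows, taken as 3 counts per library on the same TMM scale, was 0.174 to 0.679 CPM over the 9 libraries. The libraries held the abundant transcripts of marrow, with the globin Hbb-bs between 34178 and 199500 CPM and the neutrophil granule gene Ltf between 2948 and 3857 CPM in the 4 compared. Xist was between 9.23 and 89.6 TPM, a level corrected for transcript length, in the 4 libraries and the Y-linked gene Eif2s3y was listed at 0 in each. The Y-linked gene Uty was at 0.099 and 0.555 TPM in combined and 0.009 and 0.089 in untreated marrow. Kdm5d was at 0.126 and 0.083 against 0.006 and 0.051, and Ddx3y at 0.041 and 0.026 against 0 and 0. Untreated library 1 stood apart in composition: small RNA genes took 39.95% of its TPM, against 7.97% in untreated library 2 and 13.2% and 12.3% in the combined libraries.

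Several libraries of the series' other table went against their labels. Its whole marrow libraries of run 1 were the same libraries as marrow untreated 2, G-CSF 2 and ZA 2 (r of 0.999 or more on the log2 scale over 46679 genes) and add no replicate. Of the libraries labelled whole marrow in run 2, untreated 2 and G-CSF 2 had Hbb-bs at 1037 and 636 TPM, where the run 1 libraries of those samples had 197270 and 116790, and were not used as marrow. A library labelled combined precursor, replicate 3 of run 2, had Hbb-bs at 47749 TPM, where the other 6 combined precursor libraries had 400.3 to 4815; it is not among the 5 of the final set. Within that final set, the libraries numbered 1 in run 1 and 4 in run 2 correlated at 0.990 and those numbered 3 and 5 at 0.983, while other pairs of these 5 reached at most 0.965, so the 5 may not be separate samples.

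Of 47729 genes, 14737 passed the filter on low counts. In combined marrow 467 were called higher (3.17%) and 670 lower (4.55%), 1137 in all (7.72%), and 3654 had an unadjusted p under 0.05. Among the called genes, 134 higher and 32 lower were at 0.1 TPM or less in both libraries of 1 side. TPM is a level corrected for transcript length, and the direction of such genes follows from that choice. Without them 333 were called higher and 638 lower. In each called gene both combined libraries lay beyond both untreated libraries; over all genes tested, 27.6% had both combined libraries above and 26.7% both below. Protein-coding genes made up 308 of the higher and 555 of the lower calls. A change of 4-fold or more, 2 on the log2 scale, was reached by 254 of the higher and 209 of the lower genes. The count rested on each library: 296 genes were called without combined library 1, 417 without combined library 3, 683 without untreated library 1 and 676 without untreated library 2. On log2(TPM + 1) without scaling between libraries, limma called 4081 genes higher and 143 lower, and the median change of all genes was 0.87. List medians on that scale are therefore given below relative to this median. Subtracting each library's median first gave 346 higher and 440 lower. On the unscaled TPM scale 10 genes called lower and named below had values from 0.0070 to 0.46, above 0 but under the median of all genes: Camp, Ccr2, H2-DMb1, Hba-a1, Irf8, Ms4a1, Nfe2, Prss34, Tapbp and Tyrobp.

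**Figure D1:**
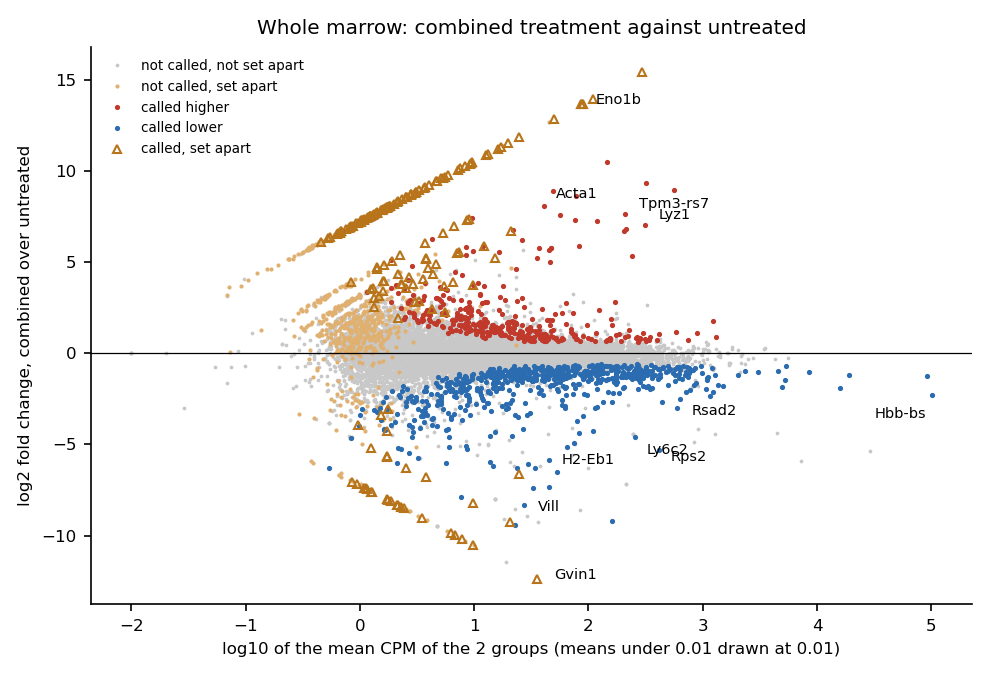
Each point is 1 of the 14737 genes tested, with the log10 of its mean CPM over both groups on the x axis and its log2 fold change, combined minus untreated marrow, on the y axis. Red and blue points are called genes, and open triangles are called genes at 0.1 TPM or less in both libraries of 1 side; in all, 467 genes were higher and 670 lower.

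The same model set the combination against G-CSF alone. It called 1 gene of 14737 (0.00679%), with 1530 at an unadjusted p under 0.05, and DESeq2 called 182. That gene, the predicted gene Gm20431, is named after its value was seen; it had 4.81 and 7.13 CPM in combined marrow, none detectable in the 3 G-CSF libraries, and 13.6 and 16.7 in untreated marrow (adjusted p = 0.0202 against G-CSF). A p above the threshold does not show that both treatments acted alike, so G-CSF or ZA levels are given beside some of the genes that follow.

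The interferon response list held the most called genes of the 26 lists. The promoters of 4 members are shown because these had the largest falls among members with a promoter entry. They are RefSeq windows of GRCm38.p6 from 250 bases before to 50 after the transcription start, read 5′ to 3′ on the gene's strand. Capitals mark each match to the core of the interferon-stimulated response element, GAAA then any 2 bases then GAAA, or its reverse complement, TTTC then any 2 bases then TTTC; overlapping matches run together. The windows are Isg15 at chr4:156200769-156201068 (minus strand, 3 matches), Ifit1 at chr19:34640639-34640938 (plus strand, 2 matches), Ifit3 at chr19:34583279-34583578 (plus strand, 2 matches) and Oas3 at chr5:120777610-120777909 (minus strand, 1 match).
Isg15: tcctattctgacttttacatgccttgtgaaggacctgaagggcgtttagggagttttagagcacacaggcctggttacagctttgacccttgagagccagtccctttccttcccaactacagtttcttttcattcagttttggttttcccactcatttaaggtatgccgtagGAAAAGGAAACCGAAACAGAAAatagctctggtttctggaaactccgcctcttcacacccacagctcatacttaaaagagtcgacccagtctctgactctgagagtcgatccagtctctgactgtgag
Ifit1: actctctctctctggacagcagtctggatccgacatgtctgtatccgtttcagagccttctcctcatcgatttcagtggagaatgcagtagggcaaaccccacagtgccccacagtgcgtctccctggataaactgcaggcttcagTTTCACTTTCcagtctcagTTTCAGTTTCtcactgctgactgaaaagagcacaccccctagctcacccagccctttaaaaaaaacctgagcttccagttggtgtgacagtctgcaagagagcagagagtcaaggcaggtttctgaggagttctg
Ifit3: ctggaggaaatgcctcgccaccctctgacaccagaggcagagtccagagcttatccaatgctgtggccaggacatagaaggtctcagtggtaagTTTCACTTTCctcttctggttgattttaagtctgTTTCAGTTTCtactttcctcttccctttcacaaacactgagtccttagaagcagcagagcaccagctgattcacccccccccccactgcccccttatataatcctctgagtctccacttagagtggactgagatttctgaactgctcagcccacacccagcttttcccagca
Oas3: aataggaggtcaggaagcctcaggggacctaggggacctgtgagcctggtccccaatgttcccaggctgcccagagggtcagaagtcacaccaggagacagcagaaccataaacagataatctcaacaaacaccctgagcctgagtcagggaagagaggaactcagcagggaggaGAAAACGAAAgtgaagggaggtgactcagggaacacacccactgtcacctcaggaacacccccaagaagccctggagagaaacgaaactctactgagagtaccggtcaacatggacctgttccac

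Of the 27 interferon genes, 19 had a promoter entry in that table and 10 of these held a match (52.6%), against 420 of 10364 tested genes with an entry (4.05%). Of the 13 called lower 7 held a match (53.8%), and of the 6 not called 3 did (50.0%). All of these 6 but Ifi44 (0.10) also had negative log2 changes. These counts therefore cannot show whether the match goes with the fall. Over all 32851 promoter windows of this length, 3.44% held a match. A match describes the letters of the window and is no evidence of a bound factor.

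All 27 interferon genes were tested; 17 were called lower and none higher, where 4.55% of all genes tested were lower. Both combined libraries lay below both untreated libraries for 25 of 27. The median log2 change of the list was −1.70, beside −0.01 over all genes tested, and −1.33 relative to all genes on the unscaled TPM scale. The summed level of the list was 511 and 613 CPM in combined marrow and 2061 and 2561 in untreated marrow. G-CSF alone gave 687 to 938 and ZA alone 1930 and 2511, so combined marrow lay just under the G-CSF range and ZA marrow in or just under the untreated range. Without combined library 1 the count fell to 6 lower, and it was 13 to 15 without each of the others.

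Rsad2, the antiviral enzyme viperin, had the highest level in the list. It was at 206 and 177 CPM in combined marrow and at 941 and 1222 in untreated marrow, a change of −2.50 ± 0.23 (adjusted p = 0.00032). With G-CSF alone it was at 193 to 246, and with ZA alone at 823 and 1135. The pairs did not overlap, and of the combined values 1 sat within and 1 just under the G-CSF range.

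Isg15, a ubiquitin-like modifier, was at 14.8 and 15.2 CPM in combined and at 170 and 156 in untreated marrow (−3.44 ± 0.46, adjusted p = 0.0039; not called without combined library 1). Irf7, the transcription factor that amplifies the response, was at 15.6 and 18.4 against 79.8 and 120 (−2.55 ± 0.28, adjusted p = 0.00092). Its partner Irf9 fell less, from 88.3 and 96.5 to 32.6 and 45.03 (−1.25 ± 0.21, adjusted p = 0.0078).

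Among the effectors that act on viral RNA the 3 described here fell by about 3 on the log2 scale. Oas3, which makes the second messenger for RNase L, was at 11.4 and 16.1 CPM against 114 and 107 (−3.01 ± 0.27, adjusted p = 0.00033). Ifit1, which binds foreign capped RNA, was at 3.32 and 2.30 against 21.5 and 29.2 (−3.16 ± 0.38, adjusted p = 0.0016). Ifit3, its partner, was at 1.53 and 1.98 against 13.5 and 15.9 (−3.10 ± 0.48, adjusted p = 0.0056). Ifi27l2a was at 3.98 and 6.43 against 60.4 and 45.4 (−3.36 ± 0.51, adjusted p = 0.0061; not called without combined library 1). Every value in combined marrow was under every untreated value, while the G-CSF levels of Ifi27l2a, 9.98 to 31.04, lay between.

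Not all members were called. Ifi44 was at 2.11 and 4.95 CPM in combined and 1.52 and 4.66 in untreated marrow (0.10 ± 0.70, adjusted p = 0.95), and Ifit2 was at 11.7 and 12.5 against 16.0 and 21.8 (−0.65 ± 0.27, adjusted p = 0.17). Oas2, Mx1, Stat2, Ifih1, Zbp1, Oasl2 and Cxcl10 also missed the threshold. Ifit2 had no match to the element in its window, while the uncalled Cxcl10, Stat2 and Ifih1 had 1 each.

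**Figure D2:**
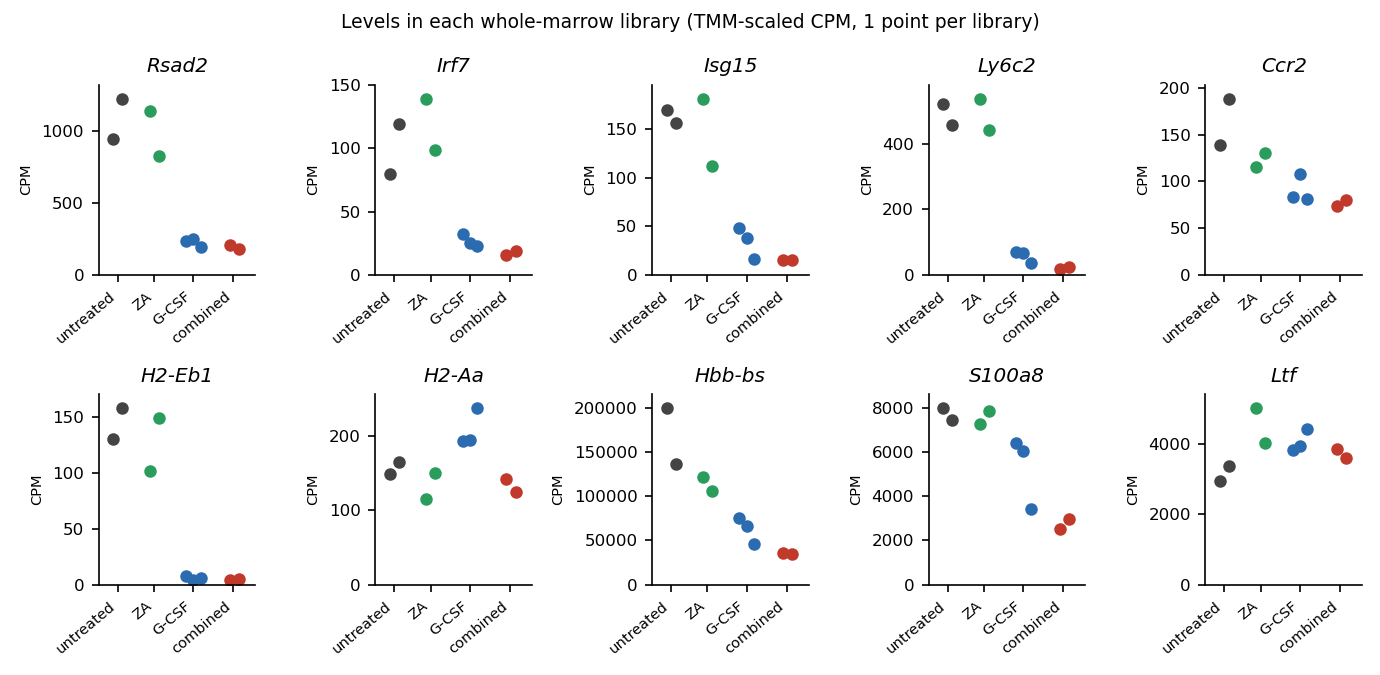
Levels in CPM, on axes that start at 0, of 10 genes in the 9 marrow libraries, 1 point per library, by treatment. Rsad2, Irf7, Isg15, Ly6c2, Ccr2, H2-Eb1 and Hbb-bs sat lower in both combined libraries than in both untreated libraries, while Ltf lay between 2948 and 3857 CPM in these 4 libraries.

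Over all genes tested 3.17% were called higher and 4.55% lower, and 27.6% lay above and 26.7% below untreated in both libraries. The counts of every list and family below stand beside these shares. A single call in a list is not read as a change of that list. Monocyte and macrophage genes were lower. Of 20 members 9 were called lower and none higher, 15 lay below untreated in both libraries and 1 above, and the median was −0.77 (0.41 on the unscaled TPM scale, which is −0.47 relative to all genes there). Their summed level was 1270 and 1364 CPM against 2489 and 2767 in untreated marrow, and 1347 to 1569 with G-CSF alone. The calls depended on both combined libraries: 2 were called lower without library 1 and 1 without library 3, and 5 without untreated library 2.

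Ly6c2, a surface protein of inflammatory monocytes, was at 17.1 and 22.9 CPM in combined and 522 and 457 in untreated marrow (−4.61 ± 0.35, adjusted p = 0.00012). With G-CSF alone it was at 34.9 to 68.6, above both combined libraries, and with ZA alone at 442 and 539. Its neighbour Ly6c1, which shares sequence with it, went the other way, from 4.87 and 3.59 to 18.2 and 19.4, so how the 2 were divided is uncertain. The sum of both still fell (−3.68, adjusted p = 0.00030).

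The chemokine receptor Ccr2, which monocytes need to leave marrow, was at 74.0 and 80.3 CPM against 139 and 188 (−1.09 ± 0.21, adjusted p = 0.015). The fractalkine receptor Cx3cr1 was at 12.7 and 9.34 against 28.4 and 44.0 (−1.72 ± 0.28, adjusted p = 0.0074), above the 6.17 to 8.24 of G-CSF alone. Irf8, the transcription factor of monocyte fate, was at 101 and 137 against 206 and 338 (−1.20 ± 0.25, adjusted p = 0.025). Ccr2 and Irf8 were not called without untreated library 2 or without either combined library, and Cx3cr1 not without combined library 3. The macrophage receptor Adgre1, the lysosomal genes Ctss and Cd68, the pore-forming gene Mpeg1 and F13a1 were also lower, by 0.73 to 1.10. Csf1r, the M-CSF receptor, was at 73.1 and 73.6 against 99.6 and 132; its groups did not overlap but it missed the threshold (−0.66 ± 0.17, adjusted p = 0.051).

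The antigen presentation genes were listed as class II and class I. Of 10 class II genes 5 were called lower and none higher, all 10 lay below untreated in both libraries, and the median was −0.90 (0.18 on the unscaled TPM scale, which is −0.69 relative to all genes there). The beta chain H2-Eb1 was at 4.07 and 5.21 CPM against 130 and 157 (−4.95 ± 0.31, adjusted p = 3.9e-05). With G-CSF alone it was at 4.40 to 7.18 and with ZA alone at 101 and 149. The alpha chain H2-Aa, by contrast, was at 142 and 125 against 149 and 165 (−0.23 ± 0.18, adjusted p = 0.47).

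H2-Ob, part of the class II loading regulator, was at 4.09 and 4.03 CPM against 42.0 and 41.8 (−3.38 ± 0.39, adjusted p = 0.0013). The beta chain H2-Ab1 was at 92.4 and 84.4 against 179 and 176 (−1.01 ± 0.20, adjusted p = 0.019), and the loading genes H2-DMa and H2-DMb1 fell by 1.01 and 1.06. The invariant chain Cd74 was at 331 and 259 against 470 and 555 and was not called (−0.80 ± 0.23, adjusted p = 0.066), nor was the class II activator Ciita (−0.77 ± 0.32, adjusted p = 0.18). In place of 5, 2 were called lower without either combined library and 3 without either untreated library.

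Of 13 class I and peptide loading genes 1 was higher and 2 lower, 1 lay above and 6 below untreated in both libraries, and the median was −0.26. The difference between the class I and class II lists was not tested. The class I heavy chain H2-D1 was at 1752 and 1605 CPM against 994 and 835 (0.88 ± 0.16, adjusted p = 0.014; not called without untreated library 2 or either combined library). H2-T23, a non-classical class I chain, went down from 254 and 206 to 33.3 and 39.9 (−2.65 ± 0.19, adjusted p = 9.3e-05). H2-K1 was at 508 and 520 against 499 and 511 (0.02 ± 0.15, adjusted p = 0.94). Class I members are close copies of each other, so single values are uncertain.

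Of 21 erythroid genes 9 were called lower and 1 higher, with a median of −0.79 (0.42 on the unscaled TPM scale, which is −0.45 relative to all genes there). The adult beta globin Hbb-bs was at 35356 and 34178 CPM against 199500 and 136100 in untreated marrow (−2.27 ± 0.28, adjusted p = 0.0017). G-CSF alone gave 46403 to 75322 and ZA alone 121600 and 105560. Both combined libraries were thus under the lowest of the other 7.

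The anion exchanger Slc4a1 of the red cell membrane was at 1383 and 2977 CPM against 6069 and 9444 (−1.83 ± 0.38, adjusted p = 0.025), and here the combined values lay above the 813 to 1239 of G-CSF alone; it was not called without untreated library 2 or combined library 1. Alas2, the first enzyme of haem synthesis, was at 1775 and 1396 against 3567 and 2716 (−0.99 ± 0.22, adjusted p = 0.028). Hbb-bt, Hba-a1, Hba-a2, Epb42 and Fech were also lower. Car1, a carbonic anhydrase of erythroid progenitors, was at 410 and 415 against 173 and 208 (1.11 ± 0.17, adjusted p = 0.0061). The erythroid transcription factors Gata1 (0.33 ± 0.19, adjusted p = 0.31) and Klf1 (0.22 ± 0.21, adjusted p = 0.56) were not called. The 9 lower calls became 2 without combined library 1, 3 without combined library 3, 3 without untreated library 1 and 5 without untreated library 2.

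**Figure D3:**
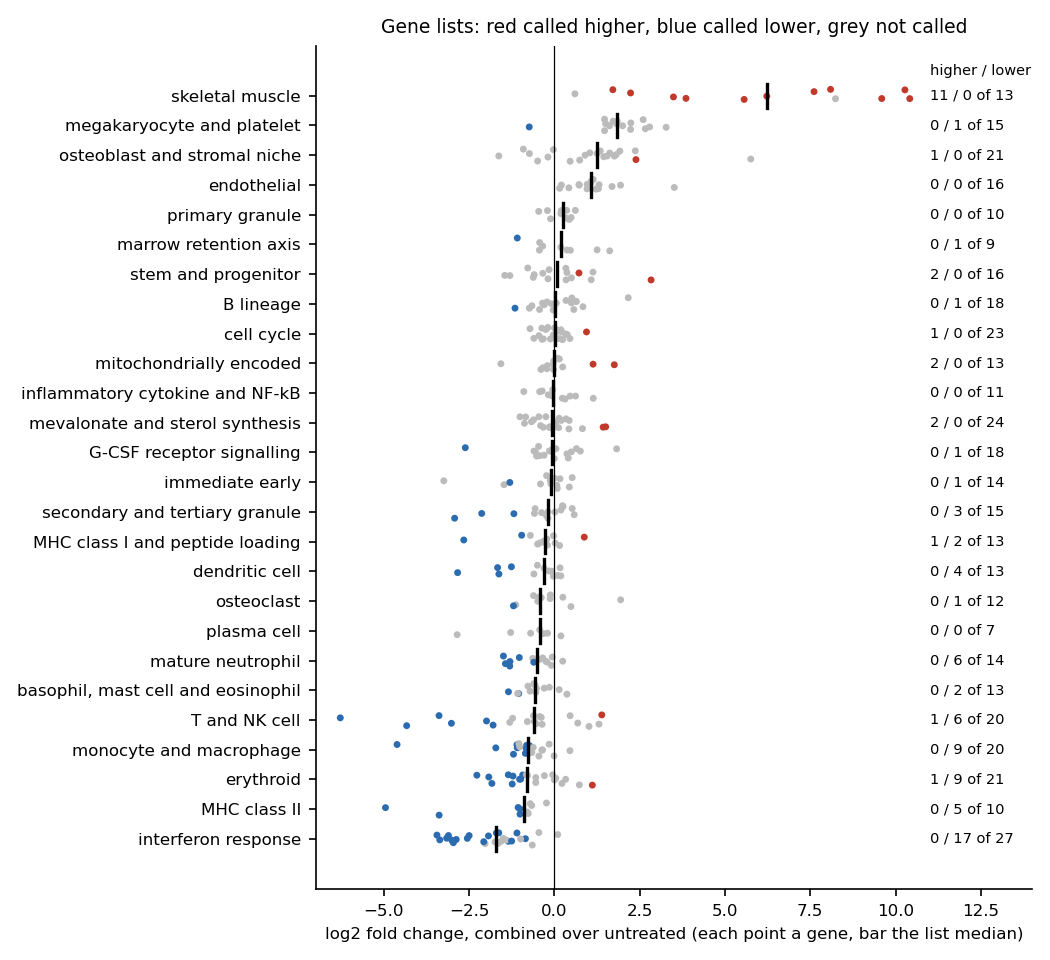
Each point is the log2 fold change of 1 tested member, combined minus untreated marrow, for the gene lists, with a bar at each list's median; the median of all genes was −0.01. The interferon list has the lowest median of the lists, −1.70, and the skeletal muscle list the highest, 6.23; on unscaled TPM the monocyte, class II and erythroid medians turn positive while staying below that of all genes.

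Neutrophil genes were listed by stage, and differences between the stage lists were not tested. None of the 10 primary granule genes, of early precursors, was called by edgeR and 1 was called higher by DESeq2. The list's median was 0.26, and relative to all genes it was 0.28, or 0.06 without untreated library 2: myeloperoxidase Mpo was at 1402 and 1205 CPM against 977 and 726 (0.62 ± 0.21, adjusted p = 0.10), and neutrophil elastase Elane at 503 and 455 against 431 and 334 (0.33 ± 0.18, adjusted p = 0.29). With G-CSF alone Mpo was at 1541 to 2081, above both combined libraries. Of 15 secondary and tertiary granule genes 3 were lower and none higher (median −0.19; 1.01 on the unscaled TPM scale, which is 0.14 relative to all genes there). Those were the integrin Itgb2l, from 174 and 247 to 22.3 and 33.3 (−2.92 ± 0.29, adjusted p = 0.00045), the chitinase-like Chil3, from 2354 and 1627 to 508 and 402 (−2.13 ± 0.23, adjusted p = 0.00081), and the antimicrobial Camp (−1.19 ± 0.25, adjusted p = 0.022; not called without untreated library 1 or either combined library).

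Lactoferrin, Ltf, was at 3857 and 3601 CPM against 2948 and 3372 and was not called (0.24 ± 0.17, adjusted p = 0.43). The surface marker Ly6g was at 176 and 150 against 117 and 101; its groups did not overlap, but it missed the threshold (0.58 ± 0.16, adjusted p = 0.063). Of 14 mature neutrophil genes 6 were lower and none higher (median −0.52; 0.68 on the unscaled TPM scale, which is −0.20 relative to all genes there). S100a8, a subunit of calprotectin, was at 2518 and 2971 against 7994 and 7444 (−1.49 ± 0.28, adjusted p = 0.014; not called without untreated library 1 or either combined library). With G-CSF alone S100a8 was at 3428 to 6421, above both combined libraries.

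Other lower members were its partner S100a9 (−1.03 ± 0.27, adjusted p = 0.049), the lectin Clec4d (−1.43 ± 0.19, adjusted p = 0.0029), the chemokine Ccl6 and the decoy receptor Il1r2. The G-CSF receptor Csf3r was at 152 and 182 CPM against 142 and 205 (−0.06 ± 0.23, adjusted p = 0.90), and its groups overlapped. In place of 6, 1 was called lower without either combined library and 3 without either untreated library.

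Of 18 genes of G-CSF receptor signalling 1 was lower and none higher (median −0.06). That was Cish, a cytokine-induced inhibitor of Stat5 signalling, at 1.48 and 3.51 CPM against 19.7 and 11.0 (−2.61 ± 0.58, adjusted p = 0.029; not called without untreated library 1 or either combined library). The inhibitor Socs3 was at 14.2 and 25.3 against 5.96 and 5.17 and was not called (1.83 ± 0.75, adjusted p = 0.17). Of 9 genes of the retention axis only Ccr2, given above, was called. Cxcl12 was at 354 and 310 against 121 and 94.9 (1.62 ± 0.68, adjusted p = 0.19), and the ZA libraries, at 74.5 and 460, spanned both. Its receptor Cxcr4 was at 240 and 202 against 332 and 266 (−0.44 ± 0.18, adjusted p = 0.17).

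Osteoclast genes, the textbook target of ZA, gave 1 lower call of 12 tested and none higher (median −0.42): the adaptor Tyrobp, which macrophages also express, at 139 and 159 CPM against 376 and 308 (−1.20 ± 0.25, adjusted p = 0.023; not called without untreated library 1 or either combined library). Cathepsin K, Ctsk, the bone-resorbing protease, was at 3.18 and 2.33 against 4.01 and 3.03 (−0.38 ± 0.51, adjusted p = 0.68). With G-CSF alone Ctsk was at 16.1 to 22.5, above both combined libraries, and the difference between the treatments was not called. Acp5, the tartrate-resistant acid phosphatase, was at 62.3 and 63.0 against 81.6 and 54.8 (−0.12 ± 0.26, adjusted p = 0.82). Of 24 genes of the mevalonate and sterol pathway 2 were higher and none lower (median −0.06). Among them was the acetoacetyl-CoA synthetase Aacs, at 64.0 and 44.1 against 21.2 and 17.2 (1.50 ± 0.23, adjusted p = 0.0052). G-CSF alone gave Aacs levels of 58.8 to 67.3 CPM and ZA alone 76.5 and 90.6. Fdps, the enzyme ZA blocks, was at 30.9 and 39.5 against 37.6 and 40.3 (−0.15 ± 0.19, adjusted p = 0.68).

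Of 20 T and NK cell genes 6 were lower and 1 higher (median −0.60; 0.37 on the unscaled TPM scale, which is −0.50 relative to all genes there); the co-receptor chains Cd8b1, at 0.317 and 0.228 CPM against 5.90 and 5.28 (−4.33 ± 0.60, adjusted p = 0.0035), and Cd8a were lower, as were Cd3e, Cd3g, Tcf7 and Thy1. The 6 lower calls became 1 without either combined library and 2 without untreated library 2, and Cd8a was not called without any 1 of the 4 libraries. Cd3e was at 0.1 TPM or less in both combined libraries, so its direction follows from that choice and it is described again below. With such set-apart genes and small RNA genes left out, 5 of 19 T and NK cell genes were lower. Cd3d, a chain of the same receptor complex as Cd3e, was higher, at 24.3 and 23.7 CPM against 8.60 and 9.63 (1.39 ± 0.23, adjusted p = 0.0079). Of 18 B lineage genes Ms4a1, which encodes CD20, was the 1 called, at 35.2 and 37.3 against 91.0 and 70.5 (−1.15 ± 0.17, adjusted p = 0.0054). Cd3d and Ms4a1 were not called without combined library 1. Of 13 dendritic cell genes 4 were lower: Ly6d, at 14.5 and 14.1 against 123 and 82.3 (−2.84 ± 0.22, adjusted p = 0.00012), Ccr9, Cd209a and Siglech. Without any 1 of the 4 libraries 1 member of the list was called lower, and Ccr9 and Cd209a were not. No plasma cell gene of 7 was called by edgeR, and DESeq2 called 1 lower.

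Among 16 stem and progenitor genes 2 were higher and none lower (median 0.09). Slamf1, the stem cell marker CD150 that megakaryocytes also carry, was at 27.1 and 18.5 CPM against 3.92 and 2.58 (2.84 ± 0.57, adjusted p = 0.021; not called without either untreated library or combined library 1). The transcription factor Myb was at 188 and 198 against 111 and 123 (0.72 ± 0.15, adjusted p = 0.022; not called without untreated library 1 or either combined library). Of 13 basophil, mast cell and eosinophil genes Ccr3 and Prss34 were lower; Ccr3 was not called without any 1 of the 4 libraries, and Prss34 not without either untreated library or combined library 3. Mcm3 was the 1 of 23 cell cycle genes called, higher by 0.94 ± 0.23 (adjusted p = 0.038), and Nr4a1 the 1 of 14 immediate early genes, lower by 1.30 ± 0.28 (adjusted p = 0.027). No gene of the 11 inflammatory cytokine and NF-kB genes was called. Mcm3 was not called without untreated library 2 or either combined library, and Nr4a1 not without any 1 of the 4 libraries.

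Genes of tissues around the marrow cells differed between single libraries. Skeletal muscle genes, which mark tissue attached to bone, gave 11 of 13 higher and none lower, with a median of 6.23 (3.89 with the 5 members at 0 in untreated marrow set to their lower bound). The direction of those 5 members follows from their choice, and with set-apart and small RNA genes left out 7 of 8 were higher. The summed level of the list was 383 and 192 CPM in combined marrow against 15.1 and 15.3 in untreated marrow. It was 36.2 to 64.1 with G-CSF and 22.3 to 23.3 with ZA. Skeletal alpha actin, Acta1, was at 121 and 42.0 against 0.304 and 0.307 (8.10 ± 0.71, adjusted p = 0.00032), and muscle creatine kinase, Ckm, at 68.5 and 34.9 against 1.03 and 0.279 (6.23 ± 0.67, adjusted p = 0.00098). Combined library 1 was the highest of the 9 libraries for both. Without it 6 members were called, and 7 or 8 without each of the others.

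Stromal and osteoblast genes had a summed level of 682 and 555 CPM against 323 and 257, with 14 of 21 above untreated in both libraries, but 1 was called: the proteoglycan Dcn, at 7.36 and 5.56 against 1.2 and 1.3 (2.39 ± 0.57, adjusted p = 0.037; not called without any 1 of the 4 libraries). The 2 ZA libraries were at 254 and 891, so replicates of 1 treatment differed by more than the groups did. DESeq2 called 4 of the 21 higher and edgeR with no filter 10. Endothelial genes had 12 of 16 above and none called, 1 with DESeq2 and 6 with no filter. Platelet and megakaryocyte genes had 14 of 15 above, a median of 1.85 and none called higher by the edgeR model of 4 groups. DESeq2 called 7 of them higher, edgeR with the groups alone 3 and with no filter 14, and limma on unscaled log2(TPM + 1) 14. Nfe2, the 1 lower call, was at 248 and 235 against 426 and 378 (−0.74 ± 0.18, adjusted p = 0.037; not called without any 1 of the 4 libraries). The integrin Itga2b was at 330 and 246 against 97.9 and 25.6, and at 37.9 and 325 when ZA was given alone (2.24 ± 1.01, adjusted p = 0.23). The part of these tissues in the other lists was not tested.

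Of 13 mitochondrially encoded genes mt-Co2, at 2191 and 1601 CPM against 583 and 539 (1.76 ± 0.24, adjusted p = 0.0035), and mt-Atp6 were higher, the latter not without any 1 of the 4 libraries. Both share nearly all of their sequence with nuclear copies, so their values are uncertain.

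The genes with the largest changes are given next, other than those already described. Genes at 0.1 TPM or less in both libraries of 1 side are left aside. Vill, a villin-like actin-binding protein, was at 0.283 and 0 CPM in combined and 48.5 and 61.5 in untreated marrow (−8.33 ± 0.84, adjusted p = 0.00090). Kbtbd11 was at 1.42 and 1.55 against 86.2 and 90.1 (−5.88 ± 0.60, adjusted p = 0.00090), and here G-CSF alone gave 19.0 to 56.4, well above both combined libraries. Tspo2, the translocator protein of erythroid cells, was at 12.0 and 10.5 against 159 and 135 (−3.70 ± 0.26, adjusted p = 6.8e-05). Ms4a4b, Ppfia4, Trim12a, Zbtb38, Cd300ld and Ccdc92b were the other lower genes, with changes from −6.01 to −4.13. Vill and Ms4a4b (0 and 0.292 CPM) were under the 3-count limit in both combined libraries, 0.296 and 0.342 CPM. The size of their folds is therefore uncertain.

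Besides muscle genes and the gene copies Lyz1 and Tpm3-rs7, the largest rises were in Tbata, Ccdc24, Mst1r, Tspan9 and Nlrp1b, from 5.81 down to 3.63. Of the 31-base stretches of Ccdc24, 58.7% also occurred in other genes, with 29.7% in Slc6a9, so its value is uncertain. Tbata was at 16.1 and 17.4 CPM against 0.220 and 0.302 (5.81 ± 0.48, adjusted p = 0.00018). Both untreated values were under the 3-count limits of 0.679 and 0.491 CPM, so the size of its fold is uncertain. The inflammasome sensor Nlrp1b was at 8.98 and 9.76 against 0.430 and 1.05 (3.63 ± 0.42, adjusted p = 0.0012). For Tbata, G-CSF alone gave 23.1 to 43.0 and ZA alone 1.06 and 1.14, and for Nlrp1b 8.28 to 10.5 and 0.665 and 0.954. For both genes the combined libraries were thus near or below G-CSF and far above ZA. Zbtb38 was not called without untreated library 1 or either combined library, Ccdc24 not without either untreated library or combined library 1, and Mst1r not without untreated library 1 or either combined library.

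Several of the largest changes were in genes with a similar copy, and in most of the pairs described here the copies moved in opposite directions. Lysozyme 1 and lysozyme 2 are neighbours on the minus strand of GRCm38, Lyz1 at chr10:117287797-117292868 and Lyz2 at chr10:117277331-117282321. Lyz2 is the lysozyme of myeloid cells and Lyz1 that of Paneth cells in the gut. Their coding sequences, 444 bases each, are the same at 422 positions (95%). The first 150 bases are shown because they let a reader see where the coding sequences differ. Capitals mark the 14 positions that differ.
Lyz1: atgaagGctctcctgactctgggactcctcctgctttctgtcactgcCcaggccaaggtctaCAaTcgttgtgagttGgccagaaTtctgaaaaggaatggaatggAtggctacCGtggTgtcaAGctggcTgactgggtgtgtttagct
Lyz2: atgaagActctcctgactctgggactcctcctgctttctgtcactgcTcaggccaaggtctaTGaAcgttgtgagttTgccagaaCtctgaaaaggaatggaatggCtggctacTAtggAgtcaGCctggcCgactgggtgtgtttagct

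Lyz1 was at 580 and 660 CPM in combined and 4.86 and 4.66 in untreated marrow (7.05 ± 0.28, adjusted p = 2.7e-06). Lyz2 was at 2960 and 3255 against 6462 and 5595 (−0.96 ± 0.22, adjusted p = 0.030). G-CSF marrow had Lyz1 at 659 to 1015 and ZA marrow at 6.42 and 5.96, so the combined and G-CSF libraries stood together. The sum of both was not called (−0.70 ± 0.22, adjusted p = 0.082).

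Eno1b, an intronless copy of the glycolytic enzyme enolase, was at 179 and 174 CPM in combined marrow and at 0 in both untreated libraries, while Eno1 was at 201 and 203 against 546 and 498. Summed with their other copies they were not called (−0.17 ± 0.16, adjusted p = 0.55). The ribosomal protein gene Rps2 was at 22.4 and 19.2 against 962 and 663, and its pseudogene Rps2-ps10 at 1217 and 1021 against 1.52 and 2.74. The sum of their set of 8 genes was not called either (0.48 ± 0.21, adjusted p = 0.19). Kpna2, a nuclear import receptor, went from 289 and 264 to 35.03 and 52.5 and its copy Gm10184 from 0 to 172 and 175, with a sum at −0.04 ± 0.17 (adjusted p = 0.92). For the tropomyosin genes Tpm3 and Tpm3-rs7 the sum stayed higher (1.04 ± 0.15, adjusted p = 0.0051). Tpm3 itself was at 331 and 311 CPM in combined and 332 and 381 in untreated marrow.

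Such pairs were counted over all calls by the share of a gene's 31-base words found in a best copy. That share was 34.2% for Lyz1 in Lyz2 and 40.3% for Rps2 in Rps2-ps10, so most of their words were not shared with that copy. It was 78.6% for Tpm3-rs7 in Tpm3, 81.8% for Eno1b in Eno1 and 95.8% for Gm10184 in Kpna2. Of the 467 genes called higher 122 had a tested copy with at least 30% shared and 33 of these copies were called lower; of the 670 called lower 109 had such a copy and 16 of these were called higher. Called genes at 0.1 TPM or less in both libraries of 1 side, described last, were left aside for the next shares. At least 50% of the words were shared with another gene by 20.4% of the 333 higher and 13.01% of the 638 lower calls. Among all genes tested the share was 10.2%. With the counts of such copies summed before the test, a setting added after the data were seen, 358 of 13481 features were higher and 623 lower.

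**Figure D4:**
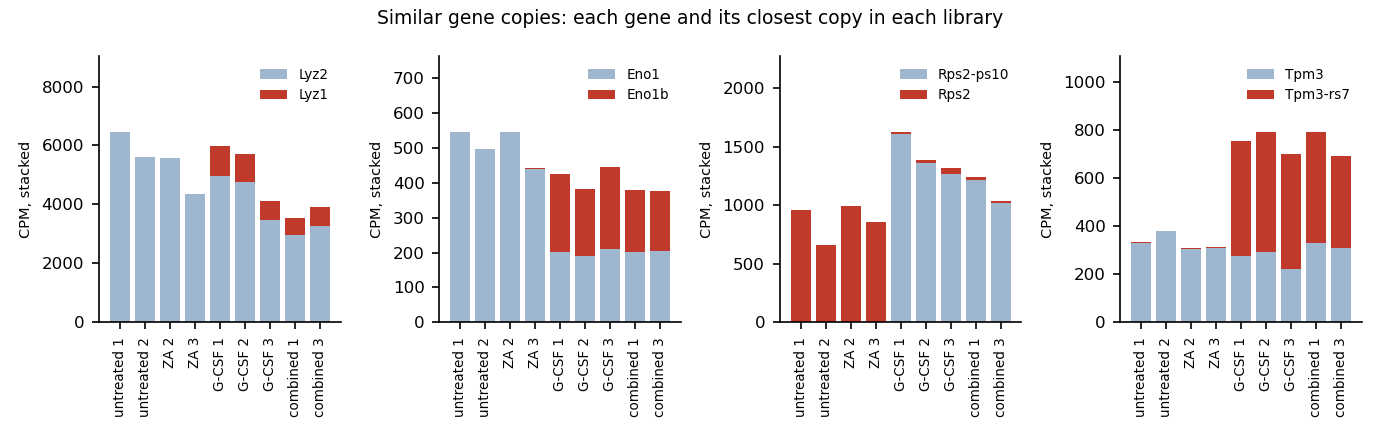
Stacked levels in CPM of 4 pairs of similar genes in the 9 marrow libraries, by treatment, on axes that start at 0. In the combined and G-CSF libraries Lyz1, Eno1b, Rps2-ps10 and Tpm3-rs7 hold a share that the untreated and ZA libraries do not show.

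Genes at 0.1 TPM or less in both libraries of 1 side were set apart, since their direction follows from the choice and their fold is a bound. Among tested genes 688 were at or under this level in untreated marrow, of which 134 were called, and 106 in combined marrow, of which 32 were called. The last genes inside the threshold in untreated marrow were Gm14232 (highest untreated value 0.0999 TPM), Gm9722 (0.0958) and Rap1gap (0.0953), and the first outside were Acta1 (0.102), Cbln1 (0.103) and Nlrp1b (0.108). In combined marrow the last inside was Ighg2c (0.0777) and the first outside Ighg1 (0.162). Of the 688, 110 had at least 1 TPM in both combined libraries: 38 were protein-coding and 60 pseudogenes, and 60 (54.5%) shared at least 50% of their 31-base words with another gene. Of the 106, 15 had at least 1 TPM in both untreated libraries, with 3 protein-coding genes and 7 pseudogenes.

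These genes passed the filter on low counts through the groups in which they were high, so their levels under the other treatments are a description. Of the 110 off in untreated marrow 73 had at least 1 TPM in all 3 G-CSF libraries and 53 were at 0.1 TPM or less in both ZA libraries. Of the 15 off in combined marrow none had at least 1 TPM in all G-CSF libraries and 8 had it in both ZA libraries. In the 5 final combined precursor libraries, cells sorted from marrow of mice given the same agents, 1 of 109 of the first kind was at 1 TPM or more in all and 45 were at 0.1 TPM or less in all, while 8 of the 15 of the second kind were at 1 TPM or more in all. Genetic background and treatment cannot be told apart in the marrow table.

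Of the protein-coding genes off in untreated marrow, those with the highest TPM in combined marrow were Fam166a, Eno1b, Gm10184, Tnnc2, BC117090, Myl1, Gm45213 and H2-Q2. Folds are given against 3 counts over the group. Eno1b was at least 621-fold higher and Gm10184 at least 609-fold higher. They shared 89.2% and 99.0% of their 31-base words with other genes, and their sums with their copies, given above, were not called. The muscle genes Tnnc2 and Myl1 were at least 66.1-fold and 59.4-fold higher. Fam166a, at 4.70 and 5.45 CPM, was at least 17.8-fold higher, and BC117090, a stefin-like gene, at least 21.9-fold higher. Gm45213 was at least 4.64-fold higher and was not called (adjusted p = 0.25).

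H2-Q2 (chromosome 17, 35342242 to 35346762, GRCm38), a class I gene, was at 17.2 CPM in both combined libraries and at 0.255 and 0 in untreated marrow, where 1 count was seen over the group. The ratio was 181 with a 95% exact interval of 32.3 to 7175, which covers counting error only. G-CSF marrow held 25.1 to 27.7 and ZA marrow 0 and 0.123. Ifi202b, an interferon-inducible gene named here after its values were seen, was at 11.2 and 27.2 against 0 and 0, at 8.61 to 11.8 with G-CSF and at 0 in both ZA libraries.

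Off in combined marrow were Stfa1, Eps8l1, Ghrl, Gvin1, Baiap3, Cd3e, Bcl2a1d and Gal3st4. Gvin1, a large interferon-inducible GTPase, was at 44.1 and 98.0 CPM in untreated marrow and at 0 in combined marrow, at least 475-fold lower. It shares 99.0% of its 31-base words with Gm4070, and the sum of both was not called (−1.55 ± 0.43, adjusted p = 0.059). Eps8l1 (chromosome 7, 4460674 to 4480487, GRCm38), an actin regulator of the Eps8 family with 0.58% of its words shared, was at 14.6 and 12.6 CPM in untreated and 0 in combined marrow, at least 84.3-fold lower. It was at 7.91 to 25.2 TPM in the 5 final combined precursor libraries.

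Stfa1 was at least 23.3-fold lower and was not called without combined library 1. It has close copies in BC100530 and BC117090, the latter given above as higher, and the sum of these 3 was higher (2.44 ± 0.37, adjusted p = 0.0061), the opposite direction to Stfa1 alone. Baiap3 was at least 29.9-fold and Bcl2a1d at least 13.2-fold lower; Bcl2a1d was not called (adjusted p = 0.054). Ghrl, which encodes ghrelin, was at least 10.8-fold and Gal3st4 at least 29.3-fold lower, neither called (adjusted p = 0.083 and 0.12); 1 untreated library held nearly all the counts of Gal3st4, 10.9 against 0.167 CPM. The T cell receptor chain Cd3e had 1 count over the combined group and a ratio of 98.7 (95% exact interval 17.0 to 3968); it was not called without either combined library.

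**Figure D5:**
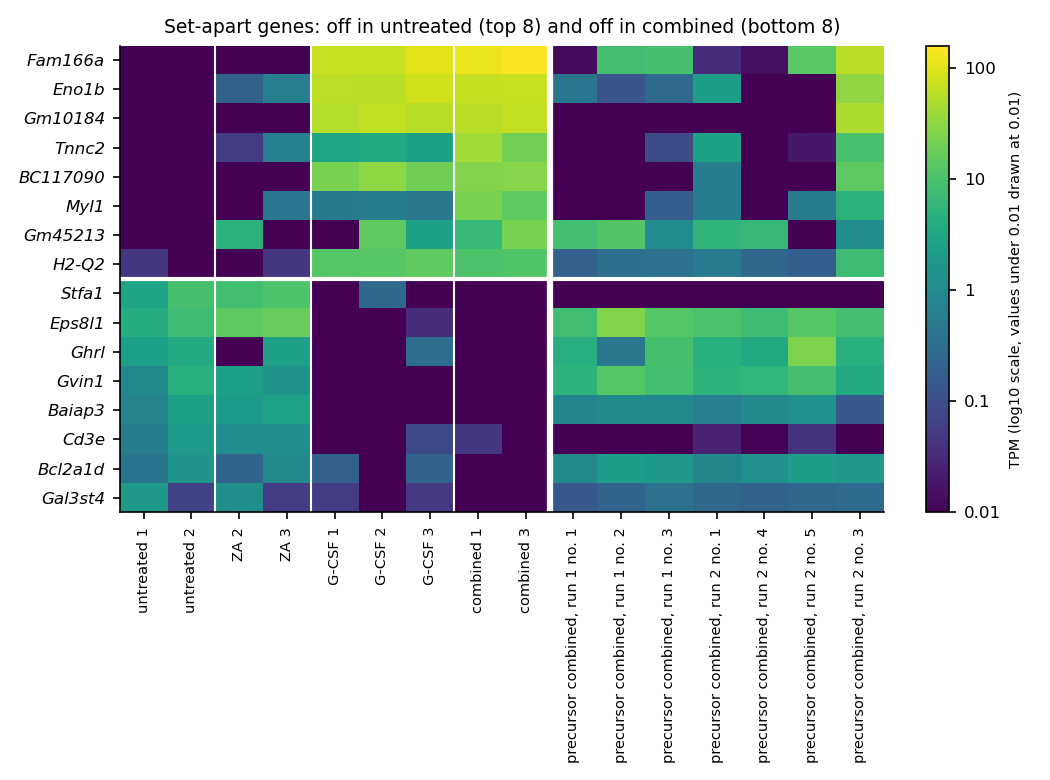
Heat map of TPM on a log scale for the 8 genes off in untreated and the 8 off in combined marrow, in the 9 marrow libraries and the 7 libraries labelled combined precursors. The first block is lit in the combined marrow and mostly in the G-CSF marrow, and in the second block Eps8l1 and Gvin1 are dark in combined marrow and lit in every precursor library.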

How the data were processed

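RNA of whole marrow was measured by sequencing (NEB Ultra kit, Illumina HiSeq, per the labels). The authors deposited estimated counts per gene, which are not whole and carry no scaling between libraries, and TPM, which are corrected for length and add up to 1 total in every library. The submitters' processing notes name Salmon, DESeq2 1.16.1 and mm10, with no role or order; the annotation and strand setting are not given in the sources used here. After rounding, the estimated counts went into edgeR 4.0.16 (robust quasi-likelihood, TMM, filterByExpr with minimum count 10 and minimum total 15) in R 4.3.3, with 9 marrow libraries in 1 model of 4 groups, over 14737 genes and a threshold of 0.05. limma 3.58.1 on log2 values computed from the deposited TPM (pseudocount 1 or 0.1) and DESeq2 1.42.0 were alternatives. Symbols came from GENCODE vM21, which held 99.1% of the identifiers. Without a strand setting, reads of a gene and an antisense partner cannot be told apart. How reads were divided among near-identical copies is not given in the sources used here, so 31-base words shared between transcripts were counted. Scripts were tested on simulated data.

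Named genes followed a rule. From called protein-coding genes of at least 5 CPM on average with groups not overlapping, excluding predicted models, receptor segments and genes at 0.1 TPM or less on 1 side, the 12 largest rises and falls were taken. Up to 4 members of each list were added, together with the 8 genes of highest TPM set apart in each direction and a fixed set from Csf3r to Irf7. Others are said to be named after their values were seen. The members and the 26 lists were chosen with earlier results of these data known. Summing copies before the test was added after seeing the data. Intervals and floors cover counting error only. The values of some list members are not reported here, and list counts and medians include them.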

Additional observations from a re-analysis of the deposited data

Results flagged for a closer look

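Among the genes off in combined marrow, Eps8l1 in the 5 final combined precursor libraries had 1 library far from the rest. Its highest value was 25.2 TPM and the other 4 lay between 7.91 and 12.7, a gap larger than Dixon's 95% limit for 5 values. Chance marks about 1 in 20 such groups, and 2 pairs of these 5 libraries correlated at 0.983 and 0.990.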

How the results depend on the processing

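For the combination against untreated, 1137 genes were called, 467 higher and 670 lower. The DESeq2 Wald test called 1740 (709 higher, 1031 lower), no filter on low counts gave 2540 (1176 and 1364), and the groups compared alone gave 748 (383 lower). limma on log2(TPM + 1) called 4224 (4081 and 143), on log2(TPM + 0.1) 4122 (3951 and 171), and on log2(TPM + 1) with no filter 1808 (1715 and 93), with medians of all genes at 0.87, 1.13 and 0.23; centring the libraries left 440 lower. Leaving out each library gave 296 to 683 calls, 159 to 245 higher and 137 to 467 lower. RLE size factors, a 5 CPM minimum, leaving out set-apart and small RNA genes, and summing copies stayed within 1.5 times of the main counts.

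With the replicate block 481 genes were called, 200 higher and 281 lower, and 20 of the 110 named genes lost their call. The 110 include genes not called in the main fit, such as Csf3r and Mpo, which had no call to lose. The share lost among called genes is therefore larger than these counts over 110 show, here and in the counts over 110 below. Untreated and combined marrow shared only number 1, and the deviations of the libraries correlated at 0.124 over 14737 genes; whether the numbers pair the samples could not be settled from 1 shared number. Against G-CSF the 1 call became 182 with DESeq2, 557 with no filter, 5 with the groups alone and 0 with the replicate block, and 1 to 3 with each library left out. Genes at or under the level in untreated marrow were 688, and 416 at 0.05 TPM, 1492 at 0.5 TPM and 617 to 1601 with 1 library left out (1601 without untreated library 2). In combined marrow they were 106, and 204 at 0.5 TPM and 71 to 244 with 1 library left out (218 and 244 without combined library 1 or 3).

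On the unscaled TPM scale 10 lower genes turned positive at log2(TPM + 1), with the same values when unfiltered, and at log2(TPM + 0.1): Camp at 0.0235 and 0.0236, Ccr2 at 0.11 and 0.13, H2-DMb1 at 0.11 and 0.14, Hba-a1 at 0.0072 and 0.0072, Irf8 at 0.0262 and 0.0330, Ms4a1 at 0.0461 and 0.0569, Nfe2 at 0.46 and 0.47, Prss34 at 0.12 and 0.12, Tapbp at 0.21 and 0.22, and Tyrobp at 0.0070 and 0.0073. The medians of all genes moved alike. Leaving out untreated library 1 or 2, or combined library 1 or 3, took the call from 21, 19, 34 and 25 of the 110 named genes. For the other shifts the cause was not tested. With 2 libraries a side and 6.24 M counts in the smallest, genes of few counts were measured poorly.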

Other observations

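Some gene families outside the lists are given here, and they were chosen after their values were seen. Over all genes tested 4.55% were lower and 3.17% higher, and 26.7% lay below untreated in both libraries. Of 9 tested Cd300 genes, which encode paired immune receptors of myeloid cells, 5 were lower and none higher, all 9 lay below untreated in both libraries, and the median was −1.25. Cd300a was at 27.1 and 24.8 CPM in combined marrow against 122 and 118 in untreated marrow (−2.21 ± 0.26, adjusted p = 0.0014). Of 13 genes of the Ifi200 and Ifi27 groups, 8 were lower and 1, Ifi202b, higher (median −1.59); the nucleic acid sensor family member Ifi209 was at 28.8 and 33.7 against 75.8 and 91.3 (−1.42 ± 0.22, adjusted p = 0.0061). Of 42 Trim genes 11 were lower and 1 higher, of 12 Ms4a genes 5 were lower, and of 8 Schlafen genes 4 were lower. Slfn14, a ribosome-associated nuclease of platelets and red cell precursors, was at 67.0 and 66.7 against 167 and 188 (−1.41 ± 0.21, adjusted p = 0.0049).

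Of 83 cytoplasmic ribosomal protein genes 16 were lower and none higher (median −0.34). Rpl3 was at 135 and 126 CPM against 1184 and 930 (−3.01 ± 0.19, adjusted p = 3.9e-05), but summed with its copies it was not called (−0.47 ± 0.19, adjusted p = 0.17). Rps18, which had no partner past the sharing threshold, was at 125 and 115 against 905 and 617 (−2.67 ± 0.22, adjusted p = 0.00017). Outside this family, Hspa8 summed with its copies was at −0.38 ± 0.16 (adjusted p = 0.18) and Ubb at −1.23 ± 0.21 (adjusted p = 0.0094). Of 56 clustered histone genes 7 were lower and 1 higher (median −2.15), and untreated library 1 was far above untreated library 2 for some, such as Hist1h1a at 19.0 against 2.55. By chromosome, 4.77% (chromosome 10) to 10.4% (chromosomes 14 and 17) of tested genes were called.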
